A study of Bos indicus and Bos indicus x Bos taurus and Bos taurus with 6 samples.

Results

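The mitochondrial ribosomal protein genes are the 78 of 21698 genes in the deposited count table whose symbol begins with MRPL or MRPS followed by a number. All 78 carry a description as mitochondrial ribosomal proteins, all 78 had reads in every library, and all 78 were among the 13455 genes that passed the filter on low counts. By their known place in the particle, 51 belong to the large subunit and 26 to the small subunit. MRPS18A and MRPS30 are counted with the large subunit, where their proteins sit despite their names. MRPS36 is counted apart, because its protein is a component of the alpha-ketoglutarate dehydrogenase complex and not of the ribosome.

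Mitochondria keep their own ribosome, which translates only the few proteins encoded by mitochondrial DNA, all of them core parts of the respiratory chain and ATP synthase. Its RNA is transcribed inside the organelle, whereas every one of its proteins is encoded in the nucleus, made in the cytosol and imported. Compared with its bacterial ancestors the mammalian particle has much less RNA and more protein, so its proteins include both homologues of bacterial ribosomal proteins and proteins found only in mitochondria. Among blood cells, lymphocytes and monocytes rely on oxidative phosphorylation more than neutrophils, which have few mitochondria, and mature red cells have none.

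RNA was sequenced from jugular whole blood of cows of 3 breeds on a Malaysian university farm, with 2 libraries per breed that the labels call biological replicates. Kedah-Kelantan is an indigenous tropical breed of Bos indicus, Brangus a composite breed, and Holstein Friesian a temperate breed of Bos taurus. The labels rank them in that order as heat-tolerant, intermediate and heat-vulnerable. All were clinically healthy adult females, neither pregnant nor lactating, aged 4.5 ± 1.2 years and weighing 450.0 ± 15 kg. Every sample is labelled as heat-stressed, at a temperature-humidity index of 44.68 in all 3 breeds, so the comparisons are between breeds and there is no unstressed group. The series' design names 4 animals in each breed, whose relation to the 2 libraries is not known here.

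Library totals were 25275377 to 28668857 counts. The 78 genes took between 0.166% and 0.250% of them. The 2 Holstein Friesian libraries stood apart from each other in blood cell markers. Summed CPM (read counts scaled to library sizes that were adjusted by the TMM method) of 12 neutrophil markers were 603 in Holstein Friesian replicate 1 and 5942 in replicate 2, against 1647 to 3266 in the other 4 libraries. Those of 9 monocyte markers were 475 and 7831, against 1135 to 1662. Those of 11 B and plasma cell markers were 3116 and 351, against 1950.3 to 3139. CAMP, a neutrophil granule gene, had no counts in 5 libraries, and HBA1 and CA1, red cell genes, had none in any library. Each comparison with Holstein Friesian is therefore given with and without each of its libraries, and a Holstein Friesian library left alone is then assumed to vary like the other breeds.

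Levels of different genes were compared as FPKM, which divides by gene length. Mean FPKM over the 6 libraries ran from 6.31 for MRPL14 to 74.4 for MRPS36, a range of 11.8-fold, with quartiles at 15.7 and 29.96. The median was 21.5 over the large-subunit genes and 22.0 over the small-subunit genes. Most of the 78 genes were thus expressed within a narrow band, with a few genes well above or below it.

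At the top, MRPS36 was followed by MRPS33, a small-subunit protein found only in mitochondria, at 72.8 FPKM. MRPL9, a homologue of a bacterial large-subunit protein, followed at 71.4 FPKM. MRPS15, a homologue of the bacterial protein that binds the small-subunit RNA early in assembly, had 66.0 FPKM, with 1 library far above the rest. At the bottom were MRPL14 and then MRPS28 at 8.49 FPKM. MRPL4, whose bacterial counterpart lines the tunnel through which the new protein leaves, had 8.76 FPKM, and MRPS21 had 8.88 FPKM.

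**Figure D1:**
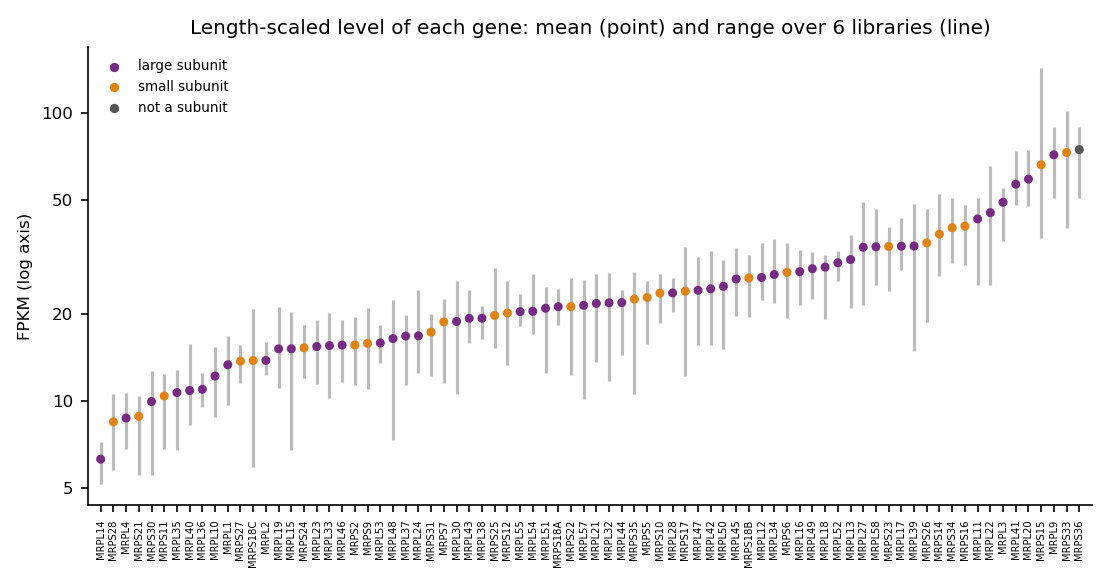
Length-scaled level of each of the 78 genes: the vertical axis is FPKM on a log scale, points are means and lines run from the lowest to the highest of 6 libraries, coloured by subunit. Most means lie between 10 and 50 FPKM, and the line of MRPS15 reaches highest.

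The genes of the stalk that receives translation factors, MRPL10, MRPL11 and MRPL12, had 12.2, 42.8 and 26.9 FPKM. MRPL45, which holds the ribosome to the inner membrane near the exit tunnel, had 26.5 FPKM, and MRPL44, a protein with a ribonuclease III fold, had 22.0 FPKM. MRPL41, also near the exit of the tunnel, was higher at 56.5 FPKM. MRPL58, a peptide release protein that became a fixed part of the large subunit, had 34.3 FPKM. In the small subunit, MRPS12, at the decoding centre, had 20.2 FPKM and MRPS7 had 18.9 FPKM. The paralogues MRPS18A, MRPS18B and MRPS18C, which occupy different places in the particle, had 21.3, 26.7 and 13.9 FPKM. Genes whose proteins stand in 1 particle were thus not at 1 common level in FPKM. This ranking depends on the gene lengths used. The length implied by the FPKM values was 428 bases for MRPS36, the highest gene, and 3079 for MRPL14, the lowest. In CPM, MRPL14 had 15.8 to 23.3, above MRPS28 at 5.28 to 9.21. How far the lengths account for the range in FPKM was not tested.

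The summed FPKM of large-subunit genes was 1.83 to 1.95 times that of small-subunit genes in the 5 libraries other than Holstein Friesian replicate 2, where it was 1.67 times. Without MRPS15 the ratio was 2.00 to 2.12 in those 5 libraries and 2.24 in Holstein Friesian replicate 2. The low ratio of that library thus rested on MRPS15 alone, and without this gene the library had the highest ratio of the 6.

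In CPM, most of the 78 genes had their highest values in Brangus. Their summed CPM, replicate 1 first, was 1774 and 1968 in the Kedah-Kelantan libraries, 2655 and 2599.6 in those of Brangus, and 2407 and 1772 in those of Holstein Friesian. On this scale the Brangus libraries were the highest 2 of the 6, the Kedah-Kelantan libraries were low, and the Holstein Friesian libraries were split. This order depended on the scaling. By share of total counts Holstein Friesian replicate 1 was highest, at 0.250% against 0.245% and 0.238% in Brangus. It was also highest by summed FPKM, at 2295 against 2257 and 2209. The ranks that follow are in CPM. A Brangus library was the highest of the 6 for 67 of the 78 genes, 40 in replicate 1 and 27 in replicate 2. The lowest library was Holstein Friesian replicate 2 for 46 genes and Kedah-Kelantan replicate 1 for 27. By breed means, Brangus was highest for 69 genes, and the order Brangus, Holstein Friesian, Kedah-Kelantan held for 50 and the order Brangus, Kedah-Kelantan, Holstein Friesian for 19. Which of Holstein Friesian and Kedah-Kelantan came lower rests on the average of 2 unlike Holstein Friesian libraries. The counts of highest and lowest libraries and of breed orders were not made over all tested genes. How far they are particular to the 78 genes is therefore not known.

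**Figure D2:**
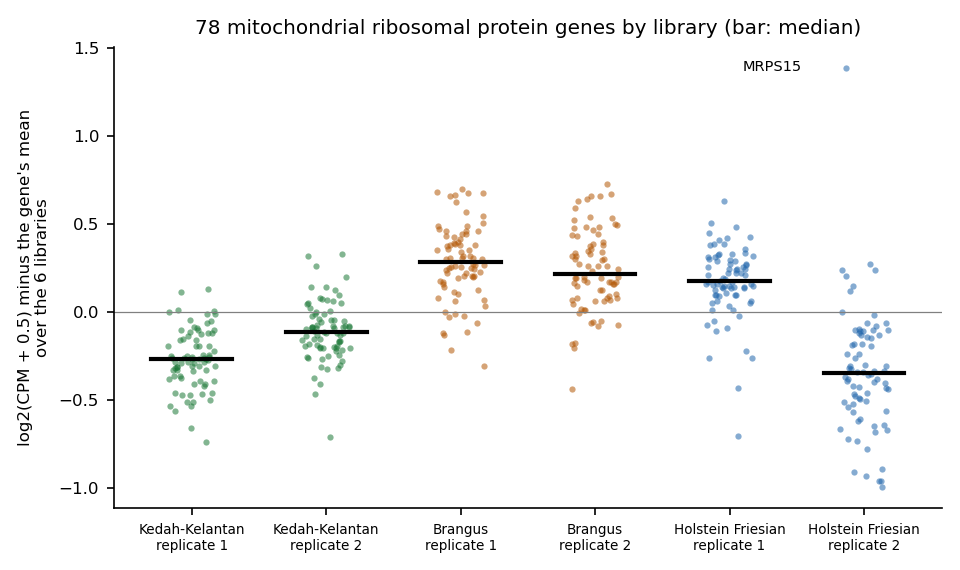
Each point is 1 of the 78 genes; the vertical axis is log2(CPM + 0.5) minus that gene's mean over the 6 libraries, and the bar is the median of a library. The medians are −0.26 and −0.11 in the Kedah-Kelantan libraries, 0.29 and 0.22 in those of Brangus, and 0.18 and −0.34 in those of Holstein Friesian, where MRPS15 is the isolated point in replicate 2.

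No gene of the 78 passed the test for any breed difference, and 5 (6.41%) had an unadjusted p under 0.05, where 8.23% of all tested genes did. These 5 were MRPL24, MRPL58, MRPS33, MRPL46 and MRPL17, with an adjusted p in edgeR's quasi-likelihood test of 0.56 or more. The share of all tested genes called in this test was 0%. DESeq2 called 1 of the 78 (1.28%), where it called 4.65% of all tested genes.

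Kedah-Kelantan was compared with Brangus. In both of these breeds the libraries were close to each other, with a median absolute log2 difference over the 78 genes of 0.17 and 0.21, against 0.56 in Holstein Friesian. Of the 78 genes, 76 had a lower fitted level in Kedah-Kelantan and 2 a higher one, and the median log2 fold change was −0.47, against 0.02 over all tested genes. None of the 78 passed an adjusted p of 0.05 in edgeR, where the share called among all tested genes was 0%. An unadjusted p under 0.05 was found for 11 genes, all lower in Kedah-Kelantan, which is 14.1% of the 78 against 11.6% of all tested genes. The libraries of the 2 breeds did not overlap for 62 genes, 61 of them lower in Kedah-Kelantan. That is 78.2% of the 78, where 30.7% of all tested genes were separated in that direction and 33.5% in the other.

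MRPL24 had the smallest p. Its protein is the homologue of a bacterial large-subunit protein that helps start assembly and sits at the rim of the exit tunnel. It had 10.4 and 9.65 CPM in Kedah-Kelantan, 21.9 and 21.7 CPM in Brangus, and 11.2 and 11.2 CPM in Holstein Friesian. Both Brangus libraries were far above all of the others, with little spread within any breed. The log2 fold change of Kedah-Kelantan against Brangus was −1.12 (SE 0.22), with an adjusted p of 0.353 in edgeR. DESeq2 called it with an adjusted p of 1.15e-05, as 1 of the 78 where it called 4.99% of all tested genes, and so did edgeR when only these 2 breeds were fitted, with 0.00864.

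MRPS33, the mitochondria-specific small-subunit protein named above, had 44.6 and 52.6 CPM in Kedah-Kelantan, 105 and 104 CPM in Brangus, and 78.3 and 40.9 CPM in Holstein Friesian. The 2 Kedah-Kelantan libraries lay well below Brangus, while the Holstein Friesian libraries spanned the Kedah-Kelantan values. Its log2 fold change was −1.11 (SE 0.33). MRPL58, the built-in release protein, had 24.2 and 25.6 CPM in Kedah-Kelantan and 44.0 and 36.5 CPM in Brangus, a log2 fold change of −0.69 (SE 0.20). Kedah-Kelantan was again below both Brangus libraries, and the adjusted p was 0.367 for MRPS33 and 0.365 for MRPL58 in edgeR.

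MRPL46, a large-subunit protein specific to mitochondria, had 11.97 and 15.2 CPM in Kedah-Kelantan and 23.2 and 23.8 CPM in Brangus, a log2 fold change of −0.79 (SE 0.24). MRPS34, a mitochondria-specific protein of the small subunit, had 27.5 and 35.4 CPM against 45.3 and 56.4 CPM, a log2 fold change of −0.69 (SE 0.22). MRPL17, a homologue of a bacterial large-subunit protein, had 21.2 and 23.3 CPM against 38.8 and 32.6 CPM, a log2 fold change of −0.68 (SE 0.20). The breeds did not overlap for any of these 3 genes. The other 5 genes with an unadjusted p under 0.05 were MRPL16, MRPL9, MRPL19, MRPS18A and MRPS6, with log2 fold changes of −0.69, −0.76, −0.86, −0.51 and −0.65.

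The 2 genes with a higher fitted level in Kedah-Kelantan were MRPL4 and MRPL15. MRPL4 had 13.5 and 12.8 CPM in Kedah-Kelantan against 11.6 and 11.9 CPM in Brangus, the single gene of the 78 separated in this direction, by 0.16 on the log2 scale (SE 0.22). MRPL15, a homologue of another bacterial large-subunit protein, had 29.8 and 34.2 CPM against 25.05 and 30.1 CPM, which overlap.

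The lower values in Kedah-Kelantan ran through both subunits. All 26 small-subunit genes and 49 of the 51 large-subunit genes were on that side, with medians of −0.47 and −0.50. The median was −0.46 for the 30 large-subunit genes with bacterial homologues and −0.51 for the 21 specific to mitochondria. In the small subunit it was −0.47 for 16 genes with homologues and −0.46 for 10 without. The stalk genes MRPL10, MRPL11 and MRPL12 had log2 fold changes of −0.33, −0.55 and −0.54. Those of MRPL41, MRPL44 and MRPL45 were −0.49, −0.32 and −0.69. Those of MRPS7, MRPS12 and MRPS28 were −0.53, −0.41 and −0.59, and those of MRPS18A, MRPS18B and MRPS18C were −0.51, −0.48 and −0.74. MRPS36, which is no ribosomal subunit, had −0.31.

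**Figure D3:**
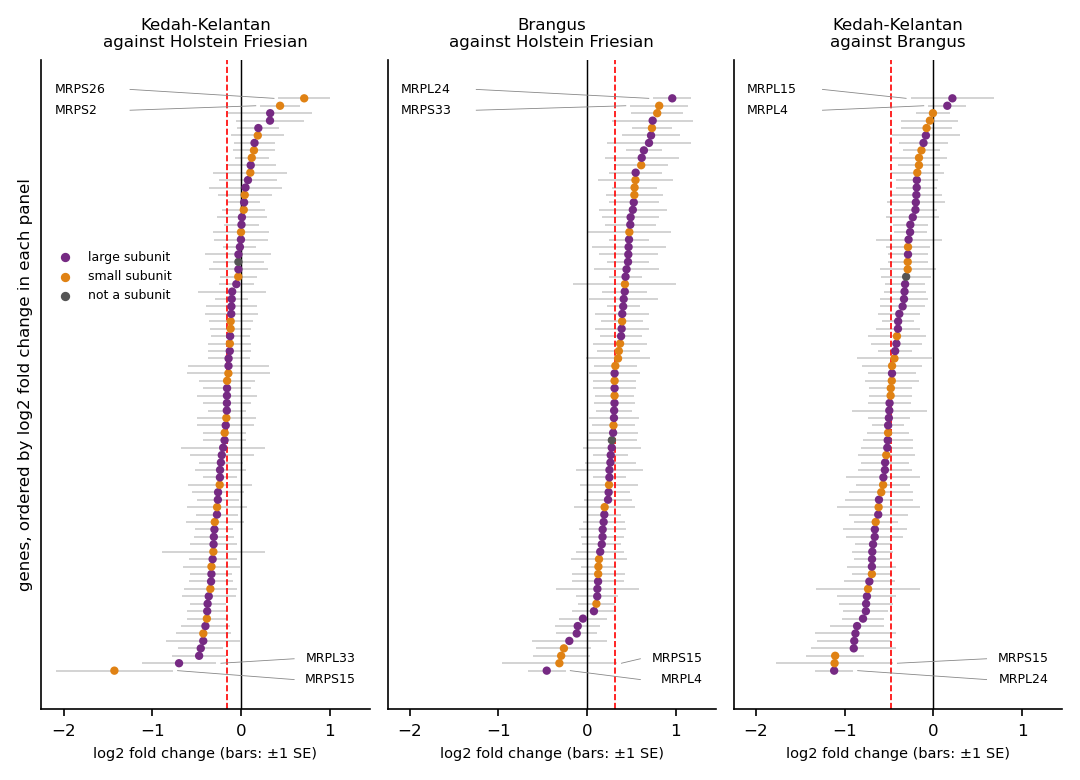
Log2 fold changes of the 78 genes with bars of ±1 SE from edgeR, ordered within each of 3 comparisons and coloured by subunit; the dashed line is the median. The medians are −0.16, 0.31 and −0.47 from left to right, and in the right panel 76 of 78 points lie below 0.

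Several settings moved this comparison. The median depended on scaling: with total counts alone in place of TMM it was −0.21, while the median of all genes moved to 0.29, so that the distance between them stayed at −0.50. With deposited FPKM values in limma it was −0.21 against 0.28 over all genes. The 78 genes are short, with a median length implied by the FPKM values of 1012 bases against 3165 over all genes with a count. With a trend on gene length removed from each library, an alternative chosen after seeing the data, the median was −0.11 and 52 of the 78 genes were lower. The number of calls depended on the Holstein Friesian libraries. With only the 2 breeds fitted, 22 of the 78 genes passed (28.2%), all lower in Kedah-Kelantan, where 19.3% of all genes passed. Without Holstein Friesian replicate 1, 22 passed where 17.4% of all genes did, and without replicate 2, 23 passed where 17.5% did.

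Blood cell markers also differed between these breeds. Of 8 platelet markers 7 were lower in Kedah-Kelantan, with summed CPM of 299.6 to 347 against 1286 to 1416 in Brangus. Of 11 B and plasma cell markers 10 were lower, with 1950.3 to 2119 CPM against 2809 to 3139. Of 11 NK and cytotoxic cell markers 10 were higher, with 743 to 827 CPM against 304 to 406. Of 8 eosinophil, basophil and mast cell markers tested 5 were higher, with 446 to 464 CPM over the 9 in the table against 44.4 to 50.7, and GATA2 had no counts in either Brangus library. Of 9 monocyte markers 7 were higher, with 1446 to 1662 CPM against 1135 to 1173. Of 11 neutrophil markers tested 8 were lower, with 1647 to 1771 CPM over the 12 in the table against 2125 to 3266. Of 5 erythroid markers tested 4 were lower, with 147 to 185 CPM over those in the table against 446 to 641. Gamma delta T cell and T cell markers were split, with 3 of 5 and 5 of 12 lower. The part of these markers in the ribosomal protein result was not tested, and in bulk RNA fewer cells of a type and less RNA per cell cannot be told apart.

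Brangus was next compared with Holstein Friesian. The fitted level was higher in Brangus for 70 of the 78 genes and lower for 8, with a median log2 fold change of 0.31 against −0.03 over all tested genes. No gene of the 78 passed the adjusted threshold in edgeR, where 0.00743% of all tested genes did, which is 1 gene. An unadjusted p under 0.05 was found for 4 genes (5.13%), where 7.62% of all genes had one. The libraries did not overlap for 34 genes, of which 33 were higher in Brangus (42.3%), where 18.4% of all genes were separated in that direction and 15.9% in the other.

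MRPL24, with the values given above, had a log2 fold change of 0.96 (SE 0.21) and an adjusted p of 0.641 in edgeR. DESeq2 called it, with 0.93 and an adjusted p of 0.00109, as 1 of the 78 (1.28%) where it called 2.33% of all tested genes. MRPS2, a homologue of a bacterial small-subunit protein, had 29.6 and 24.7 CPM in Brangus and 15.7 and 17.0 CPM in Holstein Friesian, a log2 fold change of 0.73 (SE 0.22). Its 2 Kedah-Kelantan libraries, at 19.7 and 24.7 CPM, lay between those values or level with the lower Brangus library. MRPS26, a small-subunit protein specific to mitochondria, had 36.8 and 24.96 CPM against 20.8 and 14.9 CPM, a log2 fold change of 0.79 (SE 0.29). MRPL58 had 44.0 and 36.5 CPM against 28.0 and 23.6 CPM, a log2 fold change of 0.64 (SE 0.20). These 4 genes were those with an unadjusted p under 0.05, and their libraries did not overlap.

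MRPS33 at 0.81 (SE 0.33) and MRPL3 at 0.43 (SE 0.18) followed by p. MRPL3, a homologue of the bacterial protein close to the peptidyl transferase centre, had 78.6 and 81.1 CPM in Brangus and 66.4 and 51.9 CPM in Holstein Friesian. The 8 genes on the other side included MRPL4, with 11.6 and 11.9 CPM in Brangus against 16.1 and 16.2 CPM in Holstein Friesian, a log2 fold change of −0.46 (SE 0.22). It was the single gene separated in that direction. MRPS11, MRPS25, MRPL54, MRPS15 and MRPL33 had −0.29, −0.26, −0.12, −0.31 and −0.20, with overlapping libraries.

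This comparison rested on Holstein Friesian replicate 2. Without it, 49 genes were higher in Brangus and 29 lower, with a median of 0.03, and 1 gene, MRPS15, passed at 1.06 (6.06% of all genes passed). Without replicate 1, the median was 0.63 and 32 of the 78 passed (41.0%), 31 higher and MRPS15 lower, where 31.3% of all genes passed. With the length trend removed the median was 0.14, with 54 genes higher.

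Kedah-Kelantan and Holstein Friesian, the breeds at the ends of the tolerance range in the labels, did not differ in 1 direction that held across settings. The fitted level was lower in Kedah-Kelantan for 58 of the 78 genes and higher for 20. The median was −0.16 against −0.03 over all tested genes. With FPKM values in limma it turned to 0.05, while the median of all genes moved to 0.18 and so stayed above it. With the length trend removed the median was −0.006 against −0.04 over all genes, with 38 genes higher and 40 lower. None passed the adjusted threshold in edgeR, where 0.00743% of all tested genes did, and none had an unadjusted p under 0.05, where 4.04% of all genes had one. DESeq2 also called none, where it called 0.966% of all tested genes, with 1 of the 78 at an unadjusted p under 0.05. The libraries did not overlap for 20 genes. Of these 17 (21.8%) were lower in Kedah-Kelantan, where 12.6% of all genes were, and 3 (3.85%) were higher, where 18.1% of all genes were.

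The 3 higher genes were MRPS26, MRPS2 and MRPS27, all of the small subunit. MRPS26 had 27.2 and 31.4 CPM in Kedah-Kelantan against 20.8 and 14.9 CPM in Holstein Friesian, a log2 fold change of 0.71 (SE 0.29, adjusted p 0.995 in edgeR). MRPS2 had 0.44 (SE 0.22). MRPS30, MRPL18, MRPL15 and MRPL44 had 0.33, 0.20, 0.33 and 0.15, and each of these 4 was below 0 without Holstein Friesian replicate 2. On the lower side, MRPS15 had −1.43 (SE 0.66), MRPL33 −0.70 (SE 0.42), MRPL34 −0.45 (SE 0.25), MRPL17 −0.38 (SE 0.20), MRPS34 −0.38 (SE 0.22) and MRPL16 −0.38 (SE 0.23). MRPS15 was at −2.12 without Holstein Friesian replicate 1 and at −0.059 without replicate 2. MRPL33 was the least read of these, with 4.12 and 6.37 CPM in Kedah-Kelantan and 8.69 and 8.33 CPM in Holstein Friesian.

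Without Holstein Friesian replicate 1, 51 of the 78 genes were higher in Kedah-Kelantan and the median was 0.18. In that fit 6 genes passed: MRPL15, MRPL39, MRPL57, MRPS26 and MRPS35 were higher and MRPS15 lower (17.5% of all genes passed). Without replicate 2, 75 were lower, the median was −0.42, and MRPL22, MRPL39, MRPL9, MRPS14 and MRPS33 passed as lower (11.9% of all genes passed). MRPL39 passed in both fits, at 0.73 and −0.72, so its direction was that of the Holstein Friesian library kept.

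The 2 Holstein Friesian libraries had a median absolute log2 difference of 0.56 over the 78 genes, against 0.55 over all tested genes. A difference over 2-fold was found for 12.8% of the 78 and for 27.5% of all tested genes. The size of the difference was thus not particular to these genes. In replicate 2 minus replicate 1, 72 of the 78 genes were lower, with a median log2 difference of −0.56, while 50.1% of all tested genes were lower and their median was −0.00. The large-subunit median was −0.52 and the small-subunit median −0.57. Within Brangus 46 were lower in replicate 2, with a median of −0.05, and within Kedah-Kelantan 12 were lower, with a median of 0.16.

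Among the genes lower in replicate 2, the largest gap was in MRPS18C, with 19.8 and 6.23 CPM. MRPL15 had 37.2 and 13.7 CPM, MRPL39 45.7 and 17.2 CPM, MRPL48 19.9 and 7.57 CPM, and MRPS35 30.4 and 12.7 CPM. These 5 genes, chosen after their values were seen, had log2 differences between −1.59 and −1.22. The 6 genes that were not lower in replicate 2 were MRPS15, MRPL38, MRPL17, MRPS2, MRPL36 and MRPL4. Their log2 differences were 2.09, 0.46, 0.26, 0.11, 0.10 and 0.00.

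**Figure D4:**
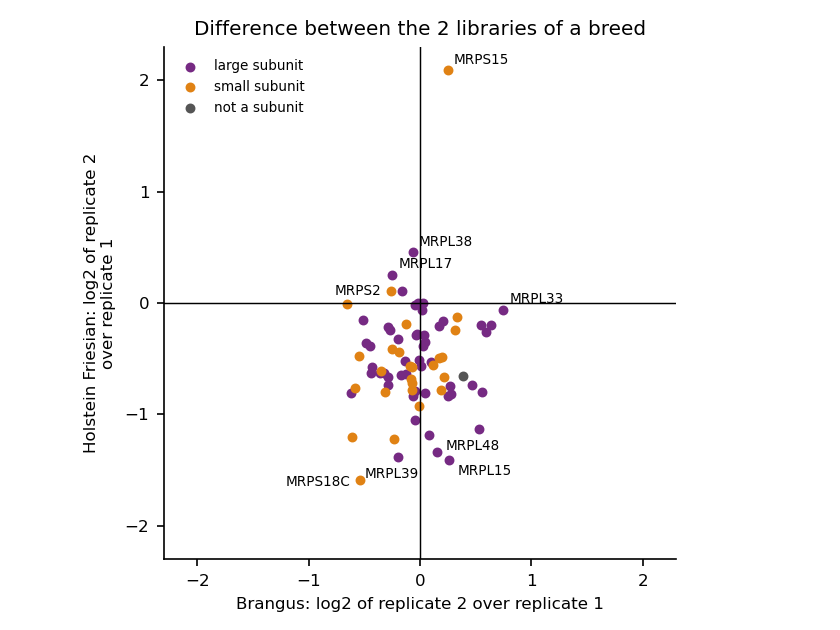
Log2 of replicate 2 over replicate 1 for each of the 78 genes, in Brangus on the horizontal axis and in Holstein Friesian on the vertical axis, coloured by subunit. In Holstein Friesian 72 points lie below 0 with a median of −0.56, in Brangus points lie on both sides, and MRPS15 stands alone at 2.09.

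Beside this shift, all 11 tested neutrophil markers were higher in Holstein Friesian replicate 2 than in replicate 1, with a median log2 difference of 3.15, as were all 9 monocyte markers (4.12) and all 8 tested eosinophil, basophil and mast cell markers (3.97). Of 11 B and plasma cell markers 10 were lower (−3.70), of 5 gamma delta T cell markers 4 (−1.21), and of 11 NK and cytotoxic markers 8 (−0.89). All 8 platelet markers were higher in replicate 2 (0.66). T cell and erythroid markers were split, with 7 of 12 lower (−0.33) and 3 of 5 lower (−0.34). Within Holstein Friesian replicate 1, MPO and MS4A2, a mast cell and basophil receptor chain, had no counts. The part of cell composition in the shift of the ribosomal protein genes was not tested.

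MRPS15 was the gene that went furthest against the others. It had 31.1 and 31.7 CPM in Kedah-Kelantan, 62.001 and 73.8 CPM in Brangus, and 31.7 and 137 CPM in Holstein Friesian. Only the second Holstein Friesian library was above Brangus, and the first was level with Kedah-Kelantan. In the deposited coordinates MRPS15 lies on chromosome 3 at 109431369 to 109437176, plus strand. CSF3R, the receptor for granulocyte colony-stimulating factor and a neutrophil marker, lies just before it on the same strand, at 109410219 to 109429225. This leaves 2144 bases between them. The pair was chosen after its values were seen. For the other genes, nearby same-strand genes that do not overlap were not looked up. CSF3R had 518 and 516 CPM in Kedah-Kelantan, 448 and 830 CPM in Brangus, and 57.6 and 1572 CPM in Holstein Friesian. In replicate 2 against replicate 1 of Holstein Friesian, CSF3R was 27.3-fold and MRPS15 4.31-fold higher. Both genes were also higher in replicate 2 than in replicate 1 of Brangus. Against Brangus replicate 1, CSF3R was higher in Kedah-Kelantan and MRPS15 lower, and against Brangus replicate 2 both were lower in Kedah-Kelantan. Whether reads that run on from CSF3R are counted in MRPS15 was not tested, since the files hold only totals per gene.

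**Figure D5:**
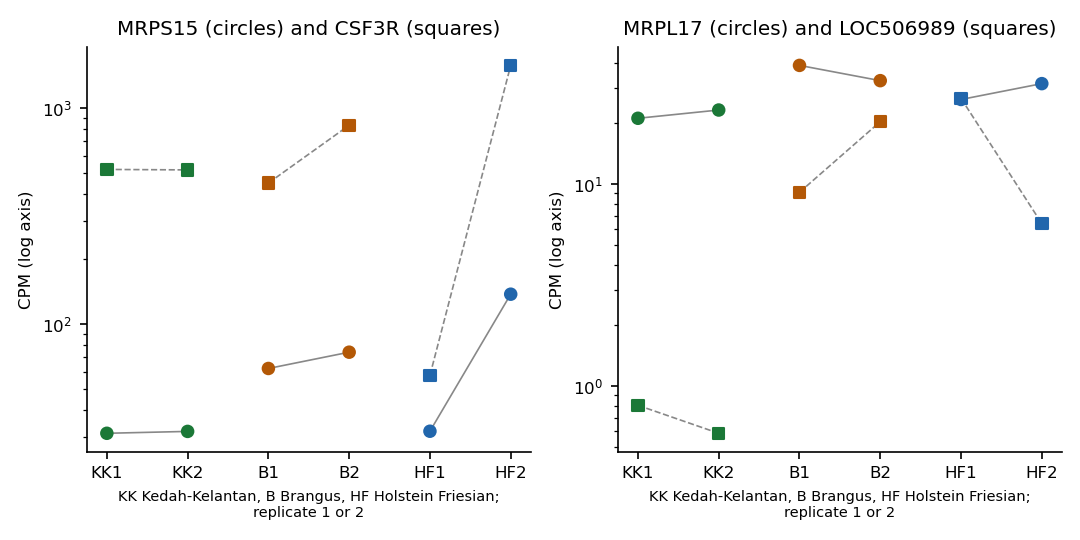
CPM on a log axis in each library: MRPS15 (circles) with its upstream neighbour CSF3R (squares) on the left, and MRPL17 (circles) with the L17-like gene LOC506989 (squares) on the right; colours mark breeds and lines join the 2 libraries of a breed. Both genes of the left pair are highest in Holstein Friesian replicate 2, and LOC506989 is lowest in Kedah-Kelantan, at 0.805 and 0.585 CPM.

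MRPL17 has a relative in the table whose symbol does not follow the MRPL pattern. LOC506989, described as similar to mitochondrial ribosomal protein L17, was chosen after its values were seen and lies on chromosome 15 at 46277369 to 46278812, plus strand. MRPL17 is on the same strand at 46383607 to 46385079, a gap of 104795 bases. The Kedah-Kelantan libraries held 25 and 18 counts of LOC506989, the Brangus libraries 213 and 475, and the Holstein Friesian libraries 793 and 168. Of the counts of the 2 genes together it thus took 3.65% and 2.45% in the Kedah-Kelantan libraries, 19.1% and 38.5% in those of Brangus, and 50.3% and 16.9% in those of Holstein Friesian. For LOC506989 in Kedah-Kelantan the fitted difference on the log2 scale was −4.40 (SE 0.88) against Brangus and −4.56 (SE 0.89) against Holstein Friesian, with adjusted p of 0.353 and 0.947 in edgeR. DESeq2 called both differences, with adjusted p of 3.1e-05 and 2.19e-05. So did edgeR without Holstein Friesian replicate 1, with 0.00109 and 0.00438, and without replicate 2, with 0.000788 and 0.000698. The sum of both genes was 22.0 and 23.9 CPM in Kedah-Kelantan, 47.9 and 53.0 CPM in Brangus, and 52.9 and 37.9 CPM in Holstein Friesian. The 2 sequences were not compared here, so how reads were divided between the 2 genes is uncertain, and with it the value of MRPL17.

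Reads of overlapping genes are likewise uncertain, because the sources used here do not say whether the counting used strand. The spans of 15 of the 78 genes (19.2%) overlap another gene, where 20.3% of all tested genes do. MRPL16 lies wholly within the span of STX3 on the opposite strand, an overlap of 4245 bases. MRPS18C shares 10445 bases with ABRAXAS1 on the opposite strand, and MRPS6 shares 33103 bases with SLC5A3 on its own strand. In counts not scaled to library size, Holstein Friesian replicate 1 first, STX3 had 163 and 1361 and MRPL16 had 951 and 638. These moved in opposite directions. ABRAXAS1 had 1470 and 366 and MRPS18C had 589 and 164, both lower in replicate 2. SLC5A3 had 1007 and 891 and MRPS6 had 779 and 486. Whether reads were shared within these pairs was not tested.

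The partners of the mitochondrial ribosome were read in the same fits, from lists chosen with results of these data known. None of their genes passed the adjusted threshold in edgeR over the 6 libraries in a comparison of breeds. From each list, the gene with the smallest p in Kedah-Kelantan against Brangus was named. With only these 2 breeds fitted, AURKAIP1, TUFM, WARS2, NGRN and SLIRP passed as lower in Kedah-Kelantan, where 19.3% of all genes passed. Their adjusted p was 0.0446, 0.0268, 0.019, 0.0159 and 0.0135 in edgeR. Because they were picked by p in this comparison, their passing is no separate result and gives no share for the lists. The same 5 passed without either Holstein Friesian library, and DESeq2 called WARS2 and NGRN. Of 6 proteins that are part of or bound to the ribosome but carry other names, all 6 had lower fitted levels in Kedah-Kelantan than in Brangus, with a median of −0.35. AURKAIP1, a small-subunit protein, had 13.97 and 17.3 CPM against 25.4 and 24.1 CPM, a log2 fold change of −0.66 (SE 0.27). Of 14 translation factors 12 were lower, with a median of −0.15. TUFM, the elongation factor that brings aminoacyl-tRNA to the ribosome, had 61.4 and 74.9 CPM against 96.6 and 105 CPM, a log2 fold change of −0.56 (SE 0.20).

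Genes of other steps were divided. Of 20 mitochondrial aminoacyl-tRNA synthetases and related enzymes 9 were lower in Kedah-Kelantan than in Brangus, with a median of 0.02. WARS2, which charges tRNA with tryptophan, had 17.5 and 15.7 CPM against 39.3 and 26.9 CPM, a log2 fold change of −0.99 (SE 0.27, adjusted p 0.356 in edgeR). Of 27 assembly and rRNA modification factors 13 were lower, also with a median of 0.02. NGRN, a factor needed for the large-subunit RNA, had −0.58 (SE 0.16). Of 21 genes of mitochondrial transcription and RNA handling 11 were lower, with a median of −0.08. SLIRP, which stabilises mitochondrial mRNA, had −1.05 (SE 0.35). Of 8 tested regulators of mitochondrial biogenesis 3 were lower, with a median of 0.03, and ESRRA, a nuclear receptor among them, had −0.21 (SE 0.21).

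The mRNAs that the mitochondrial ribosome translates, and those of cytosolic ribosomal proteins, had larger median differences between Kedah-Kelantan and Brangus. All 13 protein genes of mitochondrial DNA were lower in Kedah-Kelantan, with a median of −0.65, and 6 of them had an unadjusted p under 0.05. All 78 cytosolic ribosomal protein genes were lower, with a median of −1.27 and 75 at an unadjusted p under 0.05. These are 46.2% and 96.2% of the 2 lists, where 11.6% of all tested genes had such a p and their median was 0.02. None of the genes in either list passed the adjusted threshold in edgeR, where the smallest adjusted p was 0.353 and 0.337. Against Holstein Friesian, Brangus had medians of 0.70 and 0.87 for these 2 lists, and Kedah-Kelantan had 0.11 and −0.40. Cytosolic ribosomal protein genes together had 38.1 and 38.5 times the CPM of the mitochondrial ribosomal protein genes in Kedah-Kelantan. The ratio was 64.9 and 68.0 in Brangus libraries and 49.8 and 39.1 in Holstein Friesian ones, with Brangus above all other libraries. The genes of mitochondrial DNA had 15.9 and 16.5 times their CPM in Kedah-Kelantan, 15.5 and 18.3 times in Brangus, and 12.9 and 13.7 times in Holstein Friesian. For this second ratio Holstein Friesian had the lowest libraries, and Kedah-Kelantan lay within the Brangus range. In Holstein Friesian replicate 2 minus replicate 1, all 78 cytosolic ribosomal protein genes, 11 of 13 genes of mitochondrial DNA and all 14 translation factors were also lower, with medians of −0.81, −0.41 and −0.65.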

How the data were processed

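Whole-blood RNA was sequenced in 6 samples, 2 per breed. Per the submitters' processing notes, the tools were HISAT2 2.2.1, featureCounts 2.0.1, Trimmomatic 0.39, FastQC 0.11.9 and DESeq2 1.38.0, with build ARS-UCD1.2. Whether counting used strand is not given in the sources used here. Raw counts per gene, as deposited by the authors, are whole numbers. The deposited FPKM values are those counts over gene length and library total, with a largest deviation of 0.0502% over 4306 genes. Coordinates are the deposited table's own.

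Counts were tested with edgeR 4.0.16 in R 4.3.3: TMM, filterByExpr, robust quasi-likelihood fit with breed as the only term over 6 libraries and 3 residual degrees of freedom, Benjamini-Hochberg over 13455 genes, and a call at adjusted p under 0.05. SE is the log2 fold change over the root of F. The common biological coefficient of variation was 0.431. Alternatives used DESeq2 1.42.0, limma 3.58.1 on log2(FPKM + 0.1), other filters and scalings, the replicate number as a block, and leaving out single libraries. The test was checked on simulated counts. P-values measure the spread between these samples, and where the labels' replicates share a source it may be technical.

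The genes and lists were chosen with earlier results of these data known. Named were, per comparison, up to 6 genes per direction with the smallest p. Also named were the 4 highest and 4 lowest by mean FPKM and 14 genes fixed for their roles. Of each partner list, the gene with the smallest p in Kedah-Kelantan against Brangus was named. No protein or promoter sequence was used here.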

Additional observations from a re-analysis of the deposited data

How the results depend on the processing

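Direction and calls of the 78 genes were recomputed under the alternatives. With size factors of DESeq2 in edgeR, both other low-count filters and removal of haemoglobin genes, no count of calls changed and no median changed sign. In Kedah-Kelantan against Holstein Friesian the median of −0.16 became 0.047 with FPKM values in limma; over the single-library omissions the median ran from −0.42 to 0.18 and calls from 0 to 6. In Brangus against Holstein Friesian, DESeq2 called 1 gene (2.33% of all genes), the median ran from 0.032 to 0.63 and calls from 0 to 32. In Kedah-Kelantan against Brangus, DESeq2 called 1 gene, 22 passed with only the 2 breeds compared, the median was −0.21 with FPKM values in limma, −0.21 with no scaling factors and −0.11 with the length trend removed (both chosen after seeing the data), and over the omissions it ran from −0.54 to −0.39 and calls from 0 to 23. For any breed difference DESeq2 called 1 gene (4.65% of all genes), and calls ran from 0 to 34, with 34 without Holstein Friesian replicate 1 (34.1% of all genes) and 15 without replicate 2 (19.9%). Where a setting changed a result, the cause was not tested.

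Of the named genes, ESRRA against Brangus turned to 0.0549 with FPKM values in limma and to 0.0545 with no scaling factors. LOC506989 in Brangus against Holstein Friesian turned to 0.063 with the replicate block, and ran from −0.90 to 1.20 over the omissions. In Kedah-Kelantan against Holstein Friesian, over the omissions MRPS30 ran from −0.072 to 0.81, MRPL18 from −0.087 to 0.49, MRPL15 from −0.26 to 1.23 and MRPL44 from −0.13 to 0.44, each below 0 without Holstein Friesian replicate 2. For the Brangus and Holstein Friesian comparison, MRPL33 ran from −0.70 to 0.11 (above 0 without Brangus replicate 1), MRPS25 from −0.58 to 0.081 and MRPL54 from −0.40 to 0.17 (both above 0 without Holstein Friesian replicate 1), and MRPS15 from −1.02 to 1.06 (above 0 without replicate 2).

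With the replicate number as a block the 3 medians were −0.13, 0.31 and −0.47, with 0 calls among the 78 genes in each. Deviations of same-numbered libraries had correlations across genes of 0.09, 0.00 and 0.01, so the libraries share a number and no pairing is drawn from it. With 3 residual degrees of freedom, the spread of 2 libraries per breed limits what these tests can call.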

Other observations

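Many of the 78 genes start close to the start of a gene on the opposite strand. For 29 of them (37.2%) a gene on the opposite strand starts within 1000 bases of their own start in the deposited coordinates, where 16.3% of the 13455 tested genes and 11.9% of all 21698 genes have such a neighbour. Some of these pairs overlap, such as MRPL40 with HIRA by 645 bases and MRPL14 with TMEM63B by 586 bases. Some partners work in mitochondria too. MRPL46 and MRPS11 start 76 bases apart and point away from each other. Measured from start to start, MRPS12 stands 199 bases from SARS2, the mitochondrial seryl-tRNA synthetase, and MRPL43 stands 75 bases from TWNK, the helicase of mitochondrial DNA. MRPL47 and MRPL36 stand 132 and 766 bases from NDUFB5 and NDUFS6, subunits of respiratory complex I, and MRPS27 stands 72 bases from PTCD2.

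MRPL46 had 11.97 and 15.2 CPM in Kedah-Kelantan and 23.2 and 23.8 CPM in Brangus, while its partner MRPS11 had 9.07 and 9.33 CPM and 11.7 and 7.22 CPM. MRPL46 was thus separated between these breeds and MRPS11 was not. This pair was chosen after its values were seen.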
